A study of Mus musculus with 7 samples.

Results

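The membrane adenylyl cyclases are the family of enzymes that make the second messenger cyclic AMP (cAMP) from ATP. Of 9 genes in the family, Adcy1 to Adcy9, 8 have a row in the deposited table of 13701 genes, and all 8 passed the filter on low counts among 13695 genes tested. Adcy8 was not analysed here. The family was chosen by measured values, namely the low counts of Adcy1 and Adcy2 in both Hand1 knockout libraries. Differences of these 8 genes between knockout and control ventricles are therefore given as descriptions, with no test.

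Adenylyl cyclases sit in the plasma membrane, where the stimulatory G protein of an activated receptor switches them on, and the cAMP they make acts mainly through protein kinase A. The isoforms differ in what else controls them. Calcium-bound calmodulin stimulates Adcy1, Adcy3 and Adcy8, G protein beta-gamma subunits stimulate Adcy2, Adcy4 and Adcy7, and calcium and the inhibitory G protein restrain Adcy5 and Adcy6, the main isoforms of cardiac muscle cells. In the heart this pathway carries the signal of beta-adrenergic receptors to the rate and force of the beat.

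The study asked how gene expression differs in embryonic hearts without Hand1, which belongs to the basic helix-loop-helix family of transcription factors and is active in the left ventricle. Polyadenylated RNA was sequenced from mouse ventricles dissected at E11.5 from embryos of a mixed background. The Hand1 knockout group (2 libraries, genotype Nkx Cre +/-; H1flox/flox) carried an Nkx2.5 Cre allele and floxed Hand1. The flox control group (2 libraries, Nkx Cre wt; H1flox/flox) carried the floxed Hand1 without Cre, and the Cre control group (3 libraries, Nkx Cre +/-; wt) carried Cre with wild-type Hand1. The knockout thus shares the floxed allele with the flox controls and the Cre allele with the Cre controls. Nkx2.5 drives this Cre in the cardiac lineage, so cells of other lineages in the ventricle can keep Hand1. The sources used here do not say whether a library came from 1 embryo or from a pool, so p-values measure the spread between these libraries.

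Total counts ran between 18975283 in knockout replicate 2 and 28346700 in knockout replicate 1. Hand1 had 37 and 19 counts in the knockout libraries, 875 and 1272 in the flox controls and 1852 to 2465 in the Cre controls, so it was low in both knockout libraries and lower in the flox than in the Cre controls. Knockout replicate 2 stood apart: its highest correlation of log2 CPM with any other library was 0.927, where each of the others reached at least 0.977. Long transcripts were low in it, with a median log2 difference from the control mean of -0.67 over the 1372 genes of at least 6491 bases, against -0.30 in knockout replicate 1 and -0.11 to 0.05 in the controls. Differences of the adenylyl cyclases from the knockout are therefore also given without that library and after trends of transcript length and GC content were taken out. Xist counts were 13970 and 27200 in knockout replicates 1 and 2, 21387 in flox control replicate 2 and 19741 in Cre control replicate 2, and at most 31 in the other libraries, so embryo sex was not balanced between the groups, and its part in the results was not tested.

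The sequences just upstream of Adcy1 and Adcy2 are shown because these are the 2 genes whose low counts picked the family. Each run is the 250 bases before the RefSeq transcription start in build GRCm38.p6, read 5′ to 3′ on the strand of the gene, in lower case. The windows are chr11:7063183-7063432 on the plus strand for Adcy1 and chr13:68999542-68999791 on the minus strand for Adcy2. Capitals mark a match to any of 4 motifs, searched on both strands. The first is the E-box, CANNTG, to which basic helix-loop-helix factors such as Hand1 with its partners bind. The second is an E-box variant, CATCTG, which overlaps the first search by its letters. The other motifs are the core of the cAMP response element, TGACG, at which CREB proteins bind, and a site of the GATA factors, AGATAA.
Adcy1: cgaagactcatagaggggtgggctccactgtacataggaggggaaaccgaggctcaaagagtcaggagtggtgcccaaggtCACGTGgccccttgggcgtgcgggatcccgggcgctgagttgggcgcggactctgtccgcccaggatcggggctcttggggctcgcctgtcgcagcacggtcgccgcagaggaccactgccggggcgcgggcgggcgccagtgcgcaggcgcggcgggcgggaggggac
Adcy2: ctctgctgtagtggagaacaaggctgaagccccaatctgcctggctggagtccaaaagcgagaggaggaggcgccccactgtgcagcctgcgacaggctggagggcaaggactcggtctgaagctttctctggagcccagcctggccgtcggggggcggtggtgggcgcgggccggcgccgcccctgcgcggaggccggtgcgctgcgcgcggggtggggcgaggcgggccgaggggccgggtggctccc

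The Adcy1 window held 1 E-box, CACGTG, 169 to 164 bases before the start, and none of the other motifs. The Adcy2 window held none of the 4. Over all 32851 RefSeq windows of the same length, 66.2% held CANNTG, 14.4% CATCTG, 17.8% TGACG and 9.99% AGATAA, so an E-box is in most such windows. Both windows were rich in G and C, at 71.2% for Adcy1 and 73.2% for Adcy2, against a median of 52.4% over all windows. Windows were given for 7 of the 8 genes, and Adcy6 was not among them. A match describes letters in the window and shows no binding.

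Adcy6 was the most abundant isoform and Adcy2 the least. Levels between genes are compared as CPM (counts scaled to library size, with TMM factors) per kilobase of the deposited summed exon length. In the 5 control libraries Adcy6 averaged 69.6 ± 5.93 CPM per kilobase (SD, n = 5), Adcy5 17.0 ± 1.80 and Adcy4 12.0 ± 0.495. Adcy6, Adcy5 and Adcy4 did not overlap in range with each other or with the rest. Adcy3 at 3.88 ± 0.496 and Adcy1 at 3.34 ± 0.230 CPM per kilobase came next, and their ranges over the control libraries overlapped. Adcy7 at 1.11 ± 0.278 and Adcy9 at 0.967 ± 0.203 overlapped as well, and Adcy2 was lowest at 0.516 ± 0.0884, with its highest control value of 0.621 just under the lowest Adcy9 value of 0.652. With the longest annotated transcript as the length, the control level of Adcy3 was 3.26 against 3.34 for Adcy1, and that of Adcy9 was 1.53 against 1.18 for Adcy7, so each of these 2 pairs changed places.

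**Figure D1:**
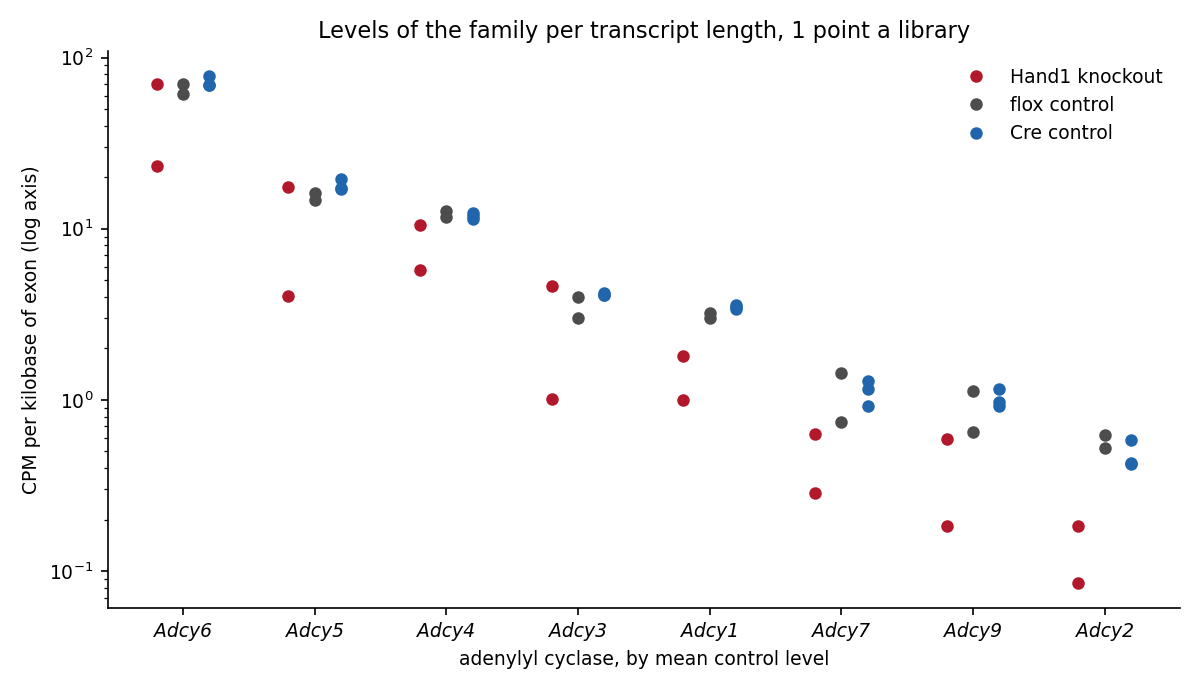
Level of each adenylyl cyclase as CPM per kilobase of exon (log axis), 1 point a library, with Hand1 knockout, flox control and Cre control from left to right within each gene. Adcy6 lay highest in each library, at 23.3 and 70.0 in the knockout libraries and at 61.3 to 78.0 in the controls, and Adcy2 lay lowest in each.

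Per length, Adcy6 made up 66.1% and 65.3% of the family's summed level in the knockout libraries, against 63.5% to 64.9% in the controls. Adcy5 made up 16.5% in knockout replicate 1 and 11.3% in knockout replicate 2, against 14.7% to 16.3% in the controls. The share of Adcy1 was 1.71% and 2.79% in the knockout libraries and 2.90% to 3.32% in the controls, and that of Adcy2 was 0.172% and 0.240%, against 0.354% to 0.648%. Both knockout libraries thus lay below the control range in the share of Adcy1 and of Adcy2, and above it in that of Adcy6. They were also below it for Adcy9, at 0.556% and 0.516% against 0.681% to 1.03%. The summed level of the family was 105.8 CPM per kilobase in knockout replicate 1 and 35.7 in knockout replicate 2, against 95.7 to 120.2 in the controls, so only the second library had a low total.

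Adcy1, a calmodulin-stimulated isoform best known from neurons, lies at chr11:7063489-7178505 (mm10, plus strand, 20 exons) and has the longest summed exon length of the family, 12258 bases. It had 22.2 and 12.2 CPM in the knockout libraries (635 and 203 counts), 36.9 and 39.3 CPM in the flox controls, and 41.5, 42.7 and 44.1 CPM in the Cre controls. Both knockout libraries were below all 5 controls, and the controls lay close together, with a coefficient of variation of 6.89%. The exact Poisson 95% interval was 20.5 to 24.0 CPM for the higher knockout value and 34.6 to 39.4 CPM for the lowest control. Such intervals give the precision of each count and cover counting error only.

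The knockout mean of Adcy1, 17.2 ± 7.03 CPM (SD, n = 2), was 45.1% of the flox control mean of 38.1 ± 1.70 CPM (n = 2) and 40.2% of the Cre control mean of 42.8 ± 1.29 CPM (n = 3). The edgeR log2 difference was -1.15 ± 0.29 (SE) from the flox controls and -1.31 ± 0.27 from the Cre controls. The authors' deposited table gives -1.32 for the knockout over the Cre controls. Without knockout replicate 2 the 2 differences were -0.77 and -0.93. After the length and GC trends they were -0.38 and -0.58, since the trend value taken out for Adcy1 was -1.34 in knockout replicate 2 and -0.30 in replicate 1. After the trends, both knockout libraries still lay below all controls, at -0.58 in replicate 1 and -0.40 in replicate 2 against -0.16 to 0.14. The same held after the trends for Adcy2, Adcy4, Adcy7 and Adcy9.

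Adcy3, the other calmodulin-stimulated isoform measured, is known for its part in olfactory neurons and in primary cilia. It lies at chr12:4133397-4213524, plus strand. It had 21.8 and 4.82 CPM in the knockout libraries, 14.2 and 18.8 CPM in the flox controls and 19.4 to 19.8 CPM in the Cre controls. Knockout replicate 1 was above all controls and knockout replicate 2 below all of them, so the group mean of 13.3 ± 12.0 CPM (SD, n = 2) describes neither. The log2 difference was -0.30 ± 0.62 (SE) from the flox and -0.55 ± 0.57 from the Cre controls. It was 0.42 and 0.18 without knockout replicate 2, and -0.08 and -0.21 after the trends. Exons of Adcy3 share 1379 bases, 29.2% of its exon length, with Cenpo on the opposite strand, and the use of strand in the counting is not stated, so reads of the 2 genes cannot be told apart there.

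**Figure D2:**
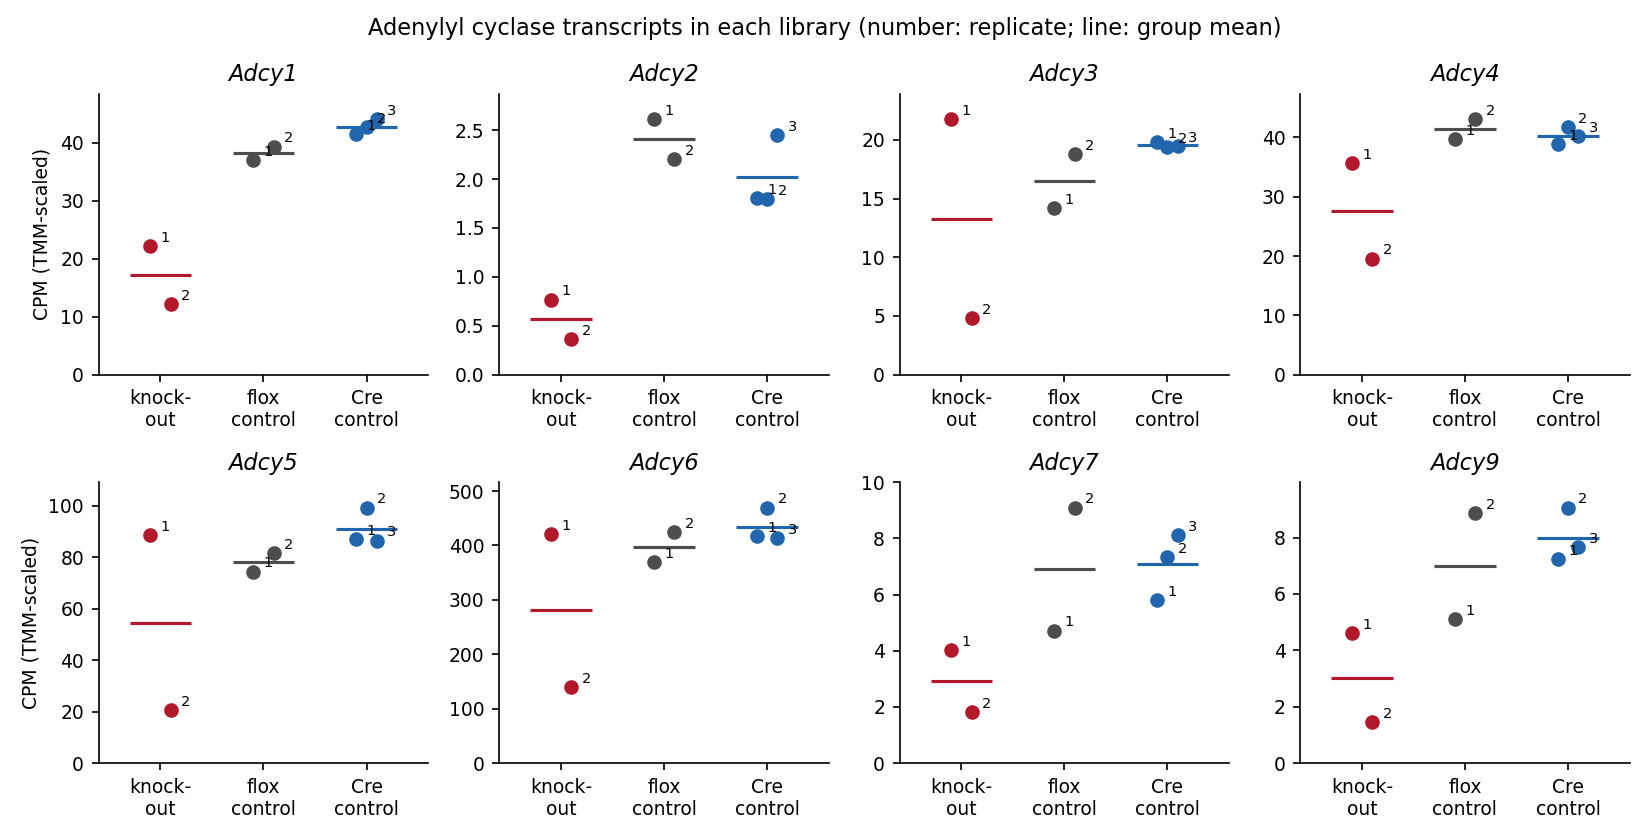
TMM-scaled CPM of the 8 adenylyl cyclases in each library, on linear axes that start at 0, with Hand1 knockout, flox control and Cre control from left to right. Points are libraries numbered by replicate and lines are group means. Adcy1 and Adcy2 lay below all controls in both knockout libraries, while Adcy3, Adcy5 and Adcy6 did so in knockout replicate 2 only.

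Adcy2 belongs to the isoforms stimulated by beta-gamma subunits and lies at chr13:68620043-68999541 (minus strand, 25 exons, 4211 bases of exon). It was near the lower end of what these libraries measure, with 0.768 and 0.361 CPM in the knockout libraries (22 and 6 counts), 2.61 and 2.21 CPM in the flox controls (67 and 59 counts) and 1.81, 1.79 and 2.45 CPM in the Cre controls (47, 50 and 65 counts). Both knockout libraries were below all controls. The exact Poisson 95% intervals were 0.481 to 1.16 and 0.133 to 0.786 CPM in the knockout libraries, and 1.33 to 2.36 CPM in the lowest control.

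The knockout mean of Adcy2, 0.565 ± 0.288 CPM (SD, n = 2), was 23.4% of the flox control mean of 2.41 ± 0.287 CPM (n = 2) and 28% of the Cre control mean of 2.02 ± 0.378 CPM (n = 3). The log2 difference was -2.03 ± 0.41 (SE) from the flox controls and -1.77 ± 0.38 from the Cre controls, where the authors' deposited table gives -1.80. Unlike Adcy1, Adcy2 kept most of this size after the length and GC trends, at -1.80 and -1.43. Without knockout replicate 2 the log2 differences were -1.63 and -1.37. After the trends the 2 knockout libraries lay close together, at -1.39 and -1.52 from the control mean, against -0.32 to 0.44 in the controls.

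Adcy4 and Adcy7 complete the beta-gamma-stimulated group. Adcy4 (chr14:55769092-55784019, minus strand) had 35.7 and 19.6 CPM in the knockout libraries, 39.7 and 43.1 CPM in the flox controls and 38.9 to 41.7 CPM in the Cre controls. Its knockout libraries were below all controls, with replicate 1 at 91.8% of the lowest control, and the log2 difference was -0.58 ± 0.29 (SE) from the flox and -0.54 ± 0.27 from the Cre controls. It rested on knockout replicate 2, with -0.20 and -0.15 without it against -1.08 and -1.04 without replicate 1, and was -0.36 and -0.18 after the trends. Adcy7, an isoform prominent in blood cells (chr8:88272403-88329962, plus strand), had 4.01 and 1.81 CPM in the knockout libraries, 4.72 and 9.09 CPM in the flox controls and 5.80 to 8.11 CPM in the Cre controls. The knockout libraries of Adcy7 were again below all controls, though replicate 1 was at 85.1% of the lowest one, and the flox controls were far apart. The log2 difference of Adcy7 was -1.22 ± 0.48 from the flox and -1.26 ± 0.45 from the Cre controls, and -0.76 in both comparisons after the trends. It was -0.77 and -0.80 without knockout replicate 2, -1.93 and -1.97 without replicate 1, and -0.64 against the remaining flox library without flox control replicate 2.

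The cardiac isoforms did not share the pattern of Adcy1 and Adcy2 in knockout replicate 1. Adcy5 (chr16:35155636-35304549, plus strand) had 88.5 and 20.5 CPM in the knockout libraries, 74.4 and 81.5 CPM in the flox controls and 86.4 to 99.3 CPM in the Cre controls. Adcy6 (chr15:98589986-98607633, minus strand) had 421.5 and 140.5 CPM in the knockout libraries, 369.3 and 424.7 CPM in the flox controls and 414.1 to 469.7 CPM in the Cre controls. For both genes, knockout replicate 1 lay inside the control range and knockout replicate 2 lay far below it. Knockout replicate 1 was at 103.2% of the control mean for Adcy5 and 100.6% for Adcy6, and replicate 2 at 23.9% and 33.5%.

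The log2 difference from the flox controls was -0.51 ± 0.60 (SE) for Adcy5 and -0.50 ± 0.49 for Adcy6, and without knockout replicate 2 it was 0.20 and 0.10. From the Cre controls it was -0.74 ± 0.56 for Adcy5 and -0.63 ± 0.46 for Adcy6, and without that library -0.02 for each. The differences after the trends were -0.25 and -0.35 for Adcy5 and -0.11 and -0.15 for Adcy6. After the length and GC trends, knockout replicate 2 still lay at -0.82 for Adcy5 and -0.36 for Adcy6, below controls at -0.12 to 0.13 and -0.04 to 0.08. The per-length ratio of Adcy5 to Adcy6 was 0.25 and 0.174 in the knockout libraries, against 0.228 to 0.252 in the controls, and that of Adcy1 to Adcy6 was 0.0259 and 0.0428, against 0.0447 to 0.0523. Relative to Adcy6, both knockout libraries were therefore below the control range for Adcy1, and replicate 2 alone for Adcy5.

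Adcy9, the isoform that responds least to the plant compound forskolin, lies at chr16:4284886-4420498 on the minus strand. It had 4.61 and 1.45 CPM in the knockout libraries, 5.11 and 8.87 CPM in the flox controls and 7.22 to 9.06 CPM in the Cre controls. Both knockout libraries were below all controls, with replicate 1 at 90.2% of the lowest. The log2 difference was -1.18 ± 0.54 (SE) from the flox and -1.37 ± 0.51 from the Cre controls, and after the trends -0.63 and -0.78. It was -0.59 and -0.77 without knockout replicate 2, -2.27 and -2.46 without replicate 1, and -0.69 against the remaining flox library without flox control replicate 2.

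Both knockout libraries thus lay below all 5 controls for 5 of the 8 genes (Adcy1, Adcy2, Adcy4, Adcy7 and Adcy9), and above all for 0. Over all genes tested, 11.6% lay below and 8.19% above in this way. Since low values of Adcy1 and Adcy2 chose the family, nothing is read from that count. The 5 differ in how far the higher knockout library was from the nearest control. It was at 42.9% of the lowest control for Adcy2 and 60.0% for Adcy1, but at 85.1% to 91.8% for Adcy4, Adcy7 and Adcy9. For Adcy7 and Adcy9 that lowest control was flox control replicate 1. Differences after the trends did not set Adcy1 apart. From the flox and the Cre controls they were -0.38 and -0.58 for Adcy1, -0.76 and -0.76 for Adcy7, and -0.63 and -0.78 for Adcy9. The median log2 difference of the 8 genes was -0.86 from the flox and -1.0 from the Cre controls, where the median over all genes tested was 0.02 and 0.00. After the length and GC trends these medians were -0.37 and -0.46 for the 8 genes and 0.05 and 0.04 for all genes. Adcy1 and Adcy2 are among the 8, so nothing is read from these medians either. Both comparisons share the same knockout libraries. In ventricle tissue, fewer cells of a type and less RNA per cell cannot be told apart.

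**Figure D3:**
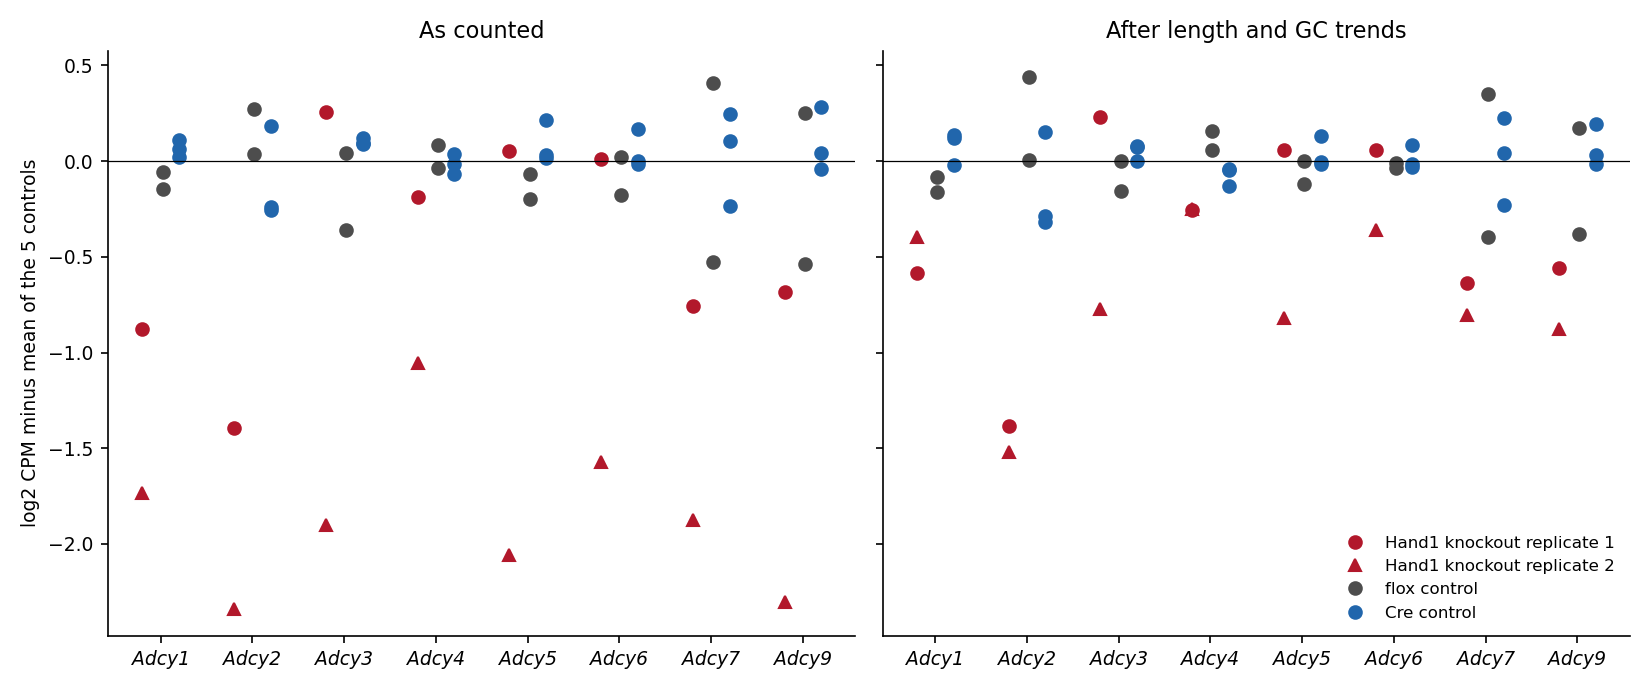
Log2 CPM of each adenylyl cyclase minus the mean of the 5 controls, by library, as counted (left) and after removal of each library's trends with transcript length and GC content (right). Within each gene the knockout libraries are left, then flox and Cre controls. Adcy2 lay at -1.40 and -2.34 in the knockout libraries before the trends were removed and at -1.39 and -1.52 after, while knockout replicate 2 of Adcy1 moved to -0.40 after removal, against -1.73 before.

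Marker genes of the cell types in the ventricle were summed to set these values beside the make-up of the tissue. Each of the 8 cardiomyocyte markers was detected in every library, and their sum, led by Actc1, was 37470 and 15380 CPM in the knockout libraries, 22220 and 28170 in the flox and 26000 to 37270 in the Cre controls, so knockout replicate 2 was below all controls and replicate 1 just above the highest. Single markers differed from the sum: Tnni3 and Myl7 were above all controls in both knockout libraries. The 8 endocardial and endothelial markers, led by Npr3, summed to 1130 and 631 CPM in the knockout libraries, against 1289 and 1505 in the flox and 1229 to 1331 in the Cre controls, so both knockout sums were below the controls. Of the 8, only Tie1 and Tek were below all controls in both knockout libraries, and Emcn was above all controls in replicate 2. Without Npr3, left out after its values were seen, the sum was 1009 and 420.5 CPM in the knockout libraries, against 963.9 to 1269 in the controls, so replicate 1 then lay inside the control range. The 6 neural crest and neuronal markers in the table, led by Tubb3, summed to 27.0 and 33.7 CPM in the knockout libraries, inside the control range of 26.4 to 44.3. Of the 6, only Sox10, a gene of low counts, was below all controls in both knockout libraries. It had 0.209 CPM in replicate 1 and 0 in replicate 2, against 0.390 to 3.21 CPM in the controls. The 4 erythroid markers in the table, led by Hbb-y, summed to 2158 and 13020 CPM in the knockout libraries, against 3057 to 6240 in the controls. For the epicardial (led by Tbx18), outflow tract (Sema3c), atrial (Myl4) and conduction system (Hcn4) lists, the sums of the 2 knockout libraries did not both lie on the same side of the control range. Single markers of these lists differed from the sums. Nppa (521.3 and 705.7 CPM against 1230 to 1513), Bmp4, Hcn4 and Cacna1g were below all controls in both knockout libraries, and Tcf21 was above all. Nppa, of the atrial list, was high in all control ventricles, so its low knockout values are not read as fewer atrial cells. The part of these differences in the levels of the adenylyl cyclases was not tested.

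The comparison of flox and Cre controls did not choose the family and gives the only test of its 8 genes here. No adenylyl cyclase passed it. The log2 differences, flox minus Cre, ran between -0.25 for Adcy3 and 0.26 for Adcy2, and the edgeR adjusted p was 0.999 for each of the 8. For Adcy1 the difference was -0.17 with a 95% interval of -0.79 to 0.46, and for Adcy2 it was 0.26 with an interval of -0.55 to 1.06. Both flox libraries were below all Cre libraries for 3 of the 8, Adcy1, Adcy3 and Adcy5, beside 17.2% of all genes, and above them for 0, beside 17.0%.

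Over all genes, edgeR called 0 between the controls (0% of 13695), with 428 at an unadjusted p below 0.05, and DESeq2 called 73 (0.533%), none of them an adenylyl cyclase (adjusted p = 1.00 for each). The wide intervals come with a spread estimated over all 7 libraries. With the 5 control libraries fitted alone, the intervals were -0.38 to 0.07 for Adcy1, -0.32 to 0.85 for Adcy2, -0.47 to 0.04 for Adcy5 and -0.44 to 0.20 for Adcy6, and the lowest edgeR adjusted p of the 8 was 0.367, for Adcy5.

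**Figure D4:**
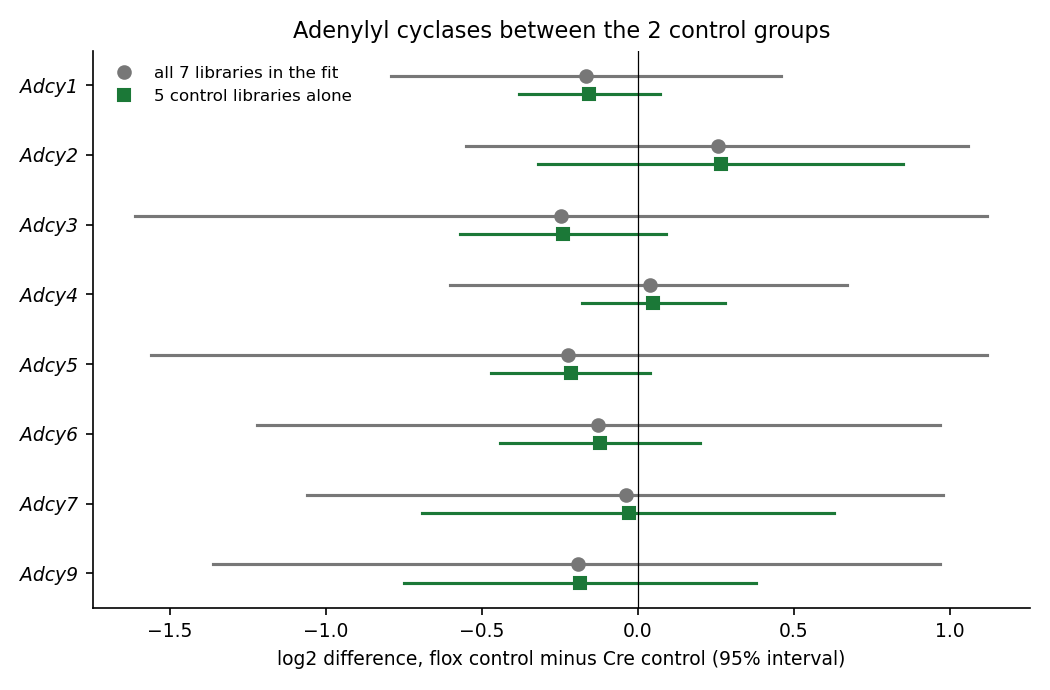
Log2 difference of each adenylyl cyclase, flox control minus Cre control, with its 95% interval from edgeR, fitted on all 7 libraries (circles) and on the 5 control libraries alone (squares). Each interval includes 0, and with the controls alone that of Adcy1 runs between -0.38 and 0.07.

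The other genes of the cAMP pathway were taken from 10 lists with 138 genes, of which 116 are in the table. None of the 116 passed edgeR in either direction against the flox or the Cre controls, where edgeR called 0.0146% of all genes in each comparison (2 of 13695). At an unadjusted p below 0.05 there were 11 of the 116 (9.48%) against the flox and 24 (20.7%) against the Cre controls, beside 8.36% and 15.4% of all genes. DESeq2 called 3 of the 116 against the flox controls, all lower, and 5 against the Cre controls, 3 lower and 2 higher. It called 2.21% and 4.05% of all genes there, so both pathway counts were near the share over all genes. The median log2 difference of the 116 was -0.07 from the flox and -0.06 from the Cre controls, close to the 0.02 and 0.00 of all genes. Both knockout libraries lay below all controls for 21 of the 116 and above for 6, beside the 11.6% and 8.19% of all genes.

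Most of these few DESeq2 calls were phosphodiesterases, the enzymes that break cAMP down. With the pathway called at about the rate of all genes, they are described gene by gene and nothing is read from their number. Pde4d, a cAMP-specific phosphodiesterase of heart muscle, had 42.3 and 36.5 CPM in the knockout libraries, 66.9 and 75.8 CPM in the flox and 61.2 to 66.4 CPM in the Cre controls, without overlap. It fell by 0.82 ± 0.19 on the log2 scale (SE) against the flox controls (DESeq2 adjusted p = 0.00183) and by 0.66 ± 0.17 against the Cre controls (DESeq2 adjusted p = 0.00582). With the length and GC trends in DESeq2 the log2 differences of Pde4d were -0.25 and -0.08, and neither passed.

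Pde3a, inhibited by cyclic GMP and placed at the sarcoplasmic reticulum, had 15.0 and 11.1 CPM in the knockout libraries, 29.4 and 23.9 CPM in the flox and 21.2 to 27.6 CPM in the Cre controls, again without overlap. It fell by 0.99 ± 0.28 (log2, SE) against the flox controls (DESeq2 adjusted p = 0.0278) and by 0.90 ± 0.26 against the Cre controls (adjusted p = 0.0189). With the trends, Pde3a passed against the Cre controls only. Pde7b had 23.2 and 24.8 CPM in the knockout libraries, 45.2 and 38.6 CPM in the flox and 29.3 to 34.6 CPM in the Cre controls, and fell by 0.77 ± 0.20 against the flox controls (DESeq2 adjusted p = 0.00788). Pde3b, the close relative of Pde3a, went the other way, with 52.1 and 81.1 CPM in the knockout libraries, 44.9 and 38.8 CPM in the flox and 33.5 to 37.4 CPM in the Cre controls. Pde3b rose by 0.92 ± 0.26 against the Cre controls (DESeq2 adjusted p = 0.0149), and its difference from the flox controls, 0.70 ± 0.28, did not pass (adjusted p = 0.230). Over the 14 phosphodiesterases in the table the median edgeR log2 difference was -0.44 from the flox and -0.24 from the Cre controls, and after the trends -0.09 and 0.06.

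On the side of receptors and G proteins, Chrm2, the muscarinic receptor that lowers cAMP in heart muscle, had 6.88 and 21.1 CPM in the knockout libraries, 12.2 and 8.72 CPM in the flox and 3.61 to 4.37 CPM in the Cre controls. It rose by 1.80 ± 0.50 (log2, SE) against the Cre controls (DESeq2 adjusted p = 0.0135), while the knockout and flox libraries overlapped. Gnal, a relative of the stimulatory alpha subunit, had 1.99 and 1.20 CPM in the knockout libraries, 2.57 and 2.21 CPM in the flox and 3.08 to 3.96 CPM in the Cre controls, and fell by 1.12 ± 0.35 against the Cre controls (DESeq2 adjusted p = 0.0361). Gnas, which encodes the stimulatory alpha subunit itself, had 1478 and 1118 CPM in the knockout libraries and 1249 to 1553 CPM in the controls. No receptor that acts through the stimulatory G protein was called by either tool among the 9 in the table.

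The adjusted p of these DESeq2 calls depended on single libraries more than the differences did. Against the flox controls no pathway gene passed without any 1 of the 5 control libraries, where 0.219% to 0.424% of all genes did. Over each library left out in turn, the log2 differences stayed at -1.24 to -0.81 for Pde3a, -0.94 to -0.72 for Pde4d and -0.87 to -0.66 for Pde7b. Without knockout replicate 1, DESeq2 called 58 pathway genes and 52.6% of all genes, and without knockout replicate 2 it called 8 pathway genes and 7.10% of all genes.

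Against the Cre controls the count of pathway genes was 66 without knockout replicate 1 (61.3% of all genes) and 2 without replicate 2 (3.35%). It was 1, Chrm2, without either flox library, and 0 without any 1 of the Cre libraries, where 0.760% to 1.04% of all genes passed. Without knockout replicate 2, Chrm2, Pde3b, Pde3a and Gnal did not pass, at log2 differences of 0.78, 0.57, -0.71 and -0.84. Without knockout replicate 1 the difference of Chrm2 was 2.4. With the length and GC trends DESeq2 called 3 pathway genes against the flox controls (2.58% of all genes) and 10 against the Cre controls (5.57%). Pde3b and, at a log2 difference of 1.02, Chrm2 passed there, while Pde7b (DESeq2 adjusted p = 0.0599) and Gnal (DESeq2 adjusted p = 0.146) did not.

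In the main fits, neither tool called a gene downstream of cAMP, nor one of the calmodulin and guanylyl cyclase lists. The main regulatory and catalytic subunits of protein kinase A were Prkar1a, with 500.7 and 431.7 CPM in the knockout libraries against 529.9 to 621.6 CPM in the controls, and Prkaca, with 228.4 and 165.5 CPM against 181.0 to 221.6 CPM. The lists of anchoring proteins (led by Akap12 and Akap13), other effectors (led by Popdc2 and Bves), calmodulin and calcium-dependent regulators (Calm2 among them), cAMP-inducible transcripts (Ppargc1a and Sik1) and guanylyl cyclases (Gucy1a3 and Gucy1b3) had medians of -0.30 to 0.22 log2 units from the flox and -0.32 to 0.23 from the Cre controls. Single genes differed from the medians. Both knockout libraries lay below all controls for 3 of 9 protein kinase A genes and 3 of 11 anchoring proteins. The same held for 1 of 15 other effectors, Hcn4, and 2 of 10 cAMP-inducible transcripts. They lay above all controls for 2 other effectors and 0 genes of the other 3 lists. Over all genes, 11.6% lay below and 8.19% above. Calm2, one of the genes for calmodulin, the activator of Adcy1, had 246.3 and 901.7 CPM in the knockout libraries, against 221.0 to 406.0 CPM in the controls, so it was high in knockout replicate 2 only.

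**Figure D5:**
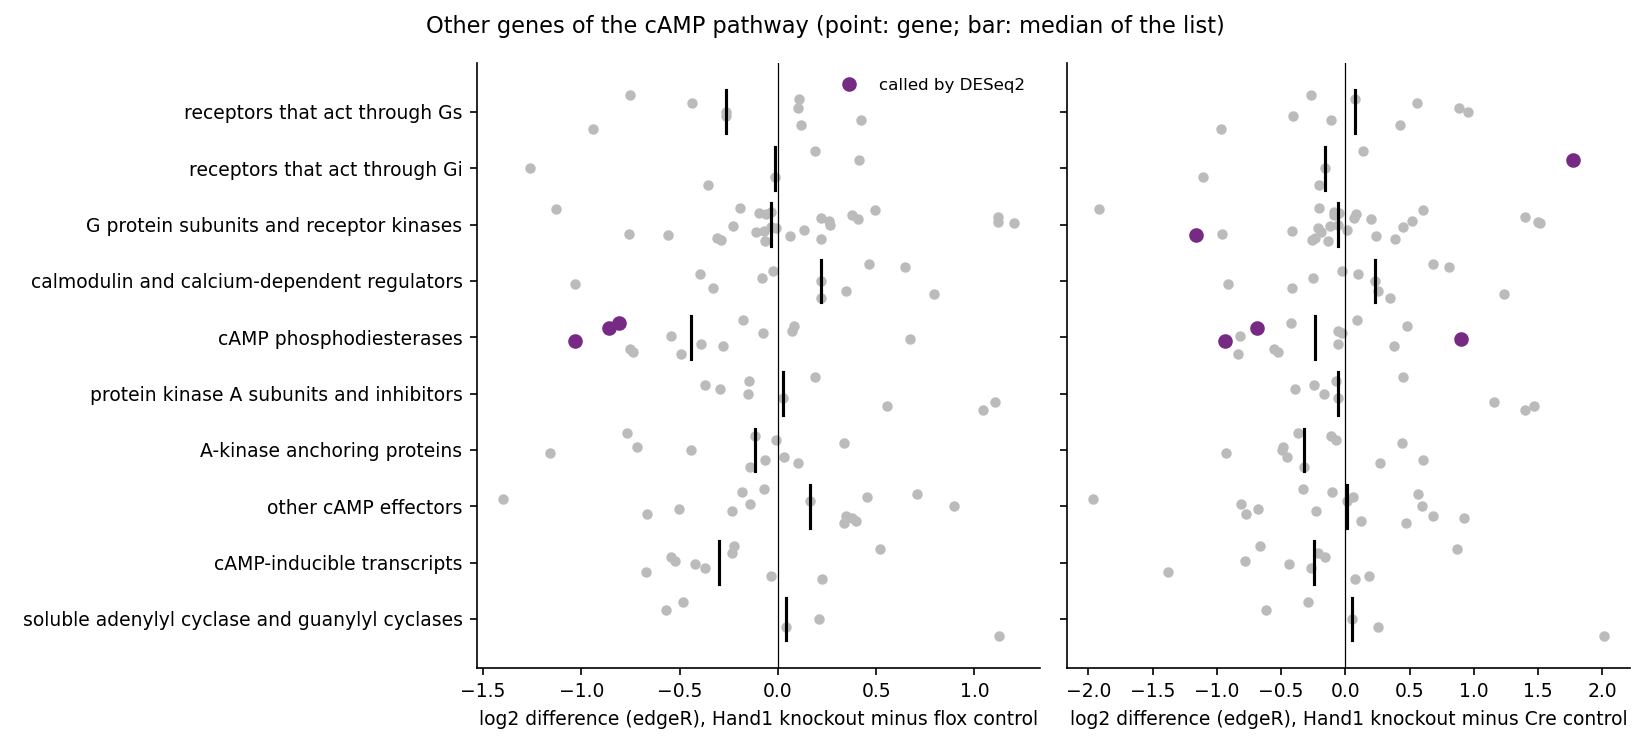
The edgeR log2 difference of 116 other genes of the cAMP pathway by list, Hand1 knockout minus flox control (left) and minus Cre control (right). Points are genes, black bars list medians, and filled purple points the 3 and 5 genes called by DESeq2, most of them phosphodiesterases.

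The genes whose log2 CPM followed Adcy1 most closely over the 7 libraries, of 13169 genes with a mean of at least 1 CPM, were Gcc1 (Pearson r = 0.999), Mgat5 (0.997), Fan1 (0.996), Sobp (0.994) and Col26a1 (0.994). For Adcy2 they included Vwa3a (r = 0.992), Thbs2 (0.992), Megf10 (0.990) and Plekhh2 (0.987). Each r rests on 7 libraries of which knockout replicate 2 lay far from the rest, and without it the values were 0.977 to 0.997 for the first 5 genes and 0.967 to 0.988 for the other 4. Adcy1 and Adcy2 correlated with each other at r = 0.959, and at 0.869 without that library. The values without knockout replicate 2 still rest on knockout replicate 1, which lay below all controls for both genes. Low counts of both genes in the knockout libraries chose the family. The other genes were picked by their r in the same libraries, so nothing is read from any of these correlations. Col26a1, a collagen of this group, averaged 8.37 CPM in the knockout, 29.1 CPM in the flox controls and 31.0 CPM in the Cre controls.

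The nearest genes of the table on each side of the 8 adenylyl cyclases were read as well. Adcy1 lies 386.0 kb from Ramp3 and 27.6 kb from Igfbp3, and Adcy2 lies 27.8 kb from Fastkd3 and 498.4 kb from Papd7. Igfbp3 had 46.3 and 18.2 CPM in the knockout libraries and 20.8 to 37.7 CPM in the controls, and Fastkd3 had 14.4 and 9.63 CPM against 12.4 to 16.9 CPM, so neither separated the groups. Of the 16 neighbours, both knockout libraries were below all controls for Crebbp only, 71.5 kb from Adcy9, with 60.2 and 34.7 CPM against 82.2 to 101.3 CPM. They were above all controls for Hacd2 only, 46.5 kb from Adcy5, with 24.0 and 32.2 CPM against 17.1 to 21.7 CPM. Over all genes 11.6% lay below and 8.19% above in this way, so 1 of 16 in each direction is no more than the background. Crebbp encodes the coactivator that binds phosphorylated CREB, a target of protein kinase A.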

How the data were processed

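Ventricle RNA of 7 libraries was analysed. Per the submitters' processing notes, STAR 2.4.2a, featureCounts, Subread 1.5.0, edgeR and mm10 were used; the annotation, settings and use of strand are not given in the sources used here. The authors deposited raw read counts per gene, the summed exon length in bases (another deposited column), and log2 fold changes of knockout over Cre controls.

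Counts of 13701 genes were fitted with edgeR 4.0.16 quasi-likelihood in R 4.3.3 (TMM, filterByExpr, robust, 1 mean per group), with Benjamini-Hochberg adjustment over 13695 genes and a threshold of 0.05. CPM were TMM-scaled, and log2 CPM had a prior count of 2. Trends of length and GC content (longest GENCODE transcript; found for 96.3% of genes) were fitted per library with mgcv 1.9.3 and used as offsets. Promoter windows came from RefSeq. Fits were tested on simulated data.

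The members, the pathway and marker lists and the naming rule were chosen with earlier results of these data known. The rule named each adenylyl cyclase, Hand1, called or most abundant list members, the 5 genes most correlated with Adcy1 and with Adcy2, neighbouring genes and leading markers; some genes it takes are not reported here. Since edgeR called no pathway gene, called members were taken from DESeq2 1.42.0, a choice made after the values were seen. Alternatives were other scaling, filters and tools (limma 3.58.1 for voom), the compared groups alone, the trends, and each library left out. DESeq2 with the trends or without each library was added after seeing the data.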

Additional observations from a re-analysis of the deposited data

How the results depend on the processing

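The log2 differences of Adcy1 and Adcy2 between knockout and either control group stayed negative under all alternatives run. Low counts of these 2 genes in both knockout libraries chose the family, so nothing is read from this sign. Leaving out 1 library gave -1.64 to -0.77 (Adcy1) and -2.72 to -1.63 (Adcy2) against flox controls, and -1.81 to -0.93 and -2.46 to -1.37 against Cre controls. With the length and GC trends Adcy1 was -0.38 and -0.58. Genes called against flox controls numbered 2, but 1 with RLE size factors, 302 with DESeq2, 0 with voom, 0 with the compared groups only, and 0 to 7547 with 1 library left out, the highest without knockout replicate 1. Against Cre controls 2 were called, 555 with DESeq2, 12 with the trends, and 0 to 8813 with 1 library left out. Between the controls 0 were called, 73 with DESeq2, 3 with the trends, 56 with the compared groups only, and 0 to 57 with 1 library left out. Pathway calls were 0, but 3 and 5 with DESeq2, and 0 to 57 and 0 to 68 with 1 library left out. In flox minus Cre, differences within the replicate spread changed sign for 3 genes: leaving out 1 library gave -0.058 to 0.088 for Adcy4 (negative without flox control replicate 2), -0.622 to 0.350 for Adcy7 (positive without flox control replicate 1 and, at 0.047, without Cre control replicate 3) and -0.680 to 0.142 for Adcy9 (positive without flox control replicate 1), and the trends gave 0.003 for Adcy7. The cause of these shifts was not tested. With no scaling factors all genes had a median of -0.11 and -0.10 in the knockout comparisons. No paired analysis was possible because replicate numbers here only name the libraries. Both knockout libraries and flox control replicate 2 share the identifier prefix NT, whose meaning the labels do not give. Among these 3 the differences from flox were -1.25 for Adcy1, -1.91 for Adcy2, -0.87 for Adcy3, -0.93 for Adcy5 and -0.80 for Adcy6. The 2 knockout libraries, of which replicate 2 stood apart, limit all knockout values.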
